A study of Rattus norvegicus with 4 samples.

Results

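Cholesterol and fatty acid synthesis genes were followed in rat vestibular ganglion neurons. The members were 30 genes listed by symbol for their place in these pathways, and 25 of them had at least 1 probe that could be read, out of 11038 gene symbols with a readable value on the array. The readable members had 36 probes among the 35126 of the table. Hmgcs1 and Srebf1 were not analysed here, and the probes of Cyp51, Msmo1 and Fasn lay in a stretch of the array whose names were not used. RNA came from vestibular ganglia of the rat that had been stained for calretinin, a calcium-binding protein, and from which labelled or unlabelled neurons had been cut out by laser and pooled. One group was calretinin-positive cells (2 arrays), the afferents that form calyces around hair cells, and the other calretinin-negative cells (2 arrays), the dimorphic and bouton afferents. All 4 arrays shared the staining, the laser capture and the Cy5 label. The sources used here do not give strain, sex, age or how many animals went into a pool. Since the negative samples carry the same description as the positive ones, the groups were taken from the titles, and "positive" and "negative" below mean libraries so titled.

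Calb2, the calretinin gene that chose the cells, had an intensity of 291 and 328 on the positive arrays and 138 and 129 on the negative arrays, a log2 change of 1.21 (adjusted p = 1.78e-06, limma), and no array was near 0. Each intensity is a deposited value on a linear scale on which every array has a median near 0.99. Nothing in the labels says that the 2 arrays of a group came from separate animals or pools, so p-values measure the spread between these arrays, which may be technical, and precision is limited by having 2 arrays a group. The pools are mixtures, and fewer cells of a type cannot be told apart from less RNA per cell.

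Cholesterol is built from acetyl-CoA through mevalonate and squalene, and a run of sterol reactions ends with cholesterol itself. Fatty acids are built from the same acetyl-CoA, then elongated and desaturated. Transcription factors of the SREBP family switch on genes of both routes when sterols are scarce, and the INSIG proteins hold SREBP back in the endoplasmic reticulum when sterols are plentiful. In nerve tissue, glia that make myelin are known for a high demand for both products, and adult neurons are thought to take part of their cholesterol from glia.

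The sterol step genes Dhcr7 and Lss, the regulator Srebf2 and the desaturases Scd and Fads2 were lower in the positive libraries. Dhcr7 was 3.14-fold lower, Scd 3.20-fold, Lss 1.87-fold and Srebf2 1.52-fold, while Fads2 lay below the limit for dim probes in the positive libraries. Mvd was 1.39-fold higher. On the brightest probe of each gene the other changes were small. Of the 22 members tested, 17, Mvd among them, differed by less than 0.5 on the log2 scale. A second Fdft1 probe was 2.28-fold lower, and the probes of Insig2 disagreed, with log2 changes of 0.45, -0.67 and -0.63.

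Counted over the 22 members bright enough to be tested, 14 were called, 6 higher and 8 lower in the positive libraries, at an adjusted p of 0.05 in limma with Benjamini-Hochberg adjustment over all tested probes. That is 63.6% called, where 64.2% of all 21070 tested probes were called, so the number of calls says nothing particular about these genes. Of the members 27.3% were higher and 36.4% lower, where 40.6% of all tested probes were higher and 23.6% lower. With each gene read by its brightest probe, as the members are, 66.6% of 8172 genes were called, 45.3% higher and 21.3% lower. Fads2 is counted among the 8 lower, although it passed the filter on dim probes only through its negative arrays. At a change of at least 2-fold 2 members with no group below the limit for dim probes were lower, Dhcr7 and Scd, and Fads2 joins them only through that filter, while 0 were higher. Of all tested probes 7.07% were lower and 8.28% higher by that size, and 15.3% of all tested probes passed that size in either direction. The median log2 change was -0.14 over the members and 0.11 over all tested probes. After quantile normalization, which moves the median of all tested probes to 0.01, 4 members were higher and 13 lower (33.0% and 28.7% of all tested probes, 61.7% in all), and after cyclic loess normalization, which moves it to -0.01, 3 were higher and 14 lower (31.7% and 32.2%, 63.9% in all). Without the second negative array 5 members were lower. With each probe tested on its own spread, 9 members passed, 4 higher and 5 lower. Of all 21070 tested probes 7082 passed in that setting, 4492 higher and 2590 lower.

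**Figure D1:**
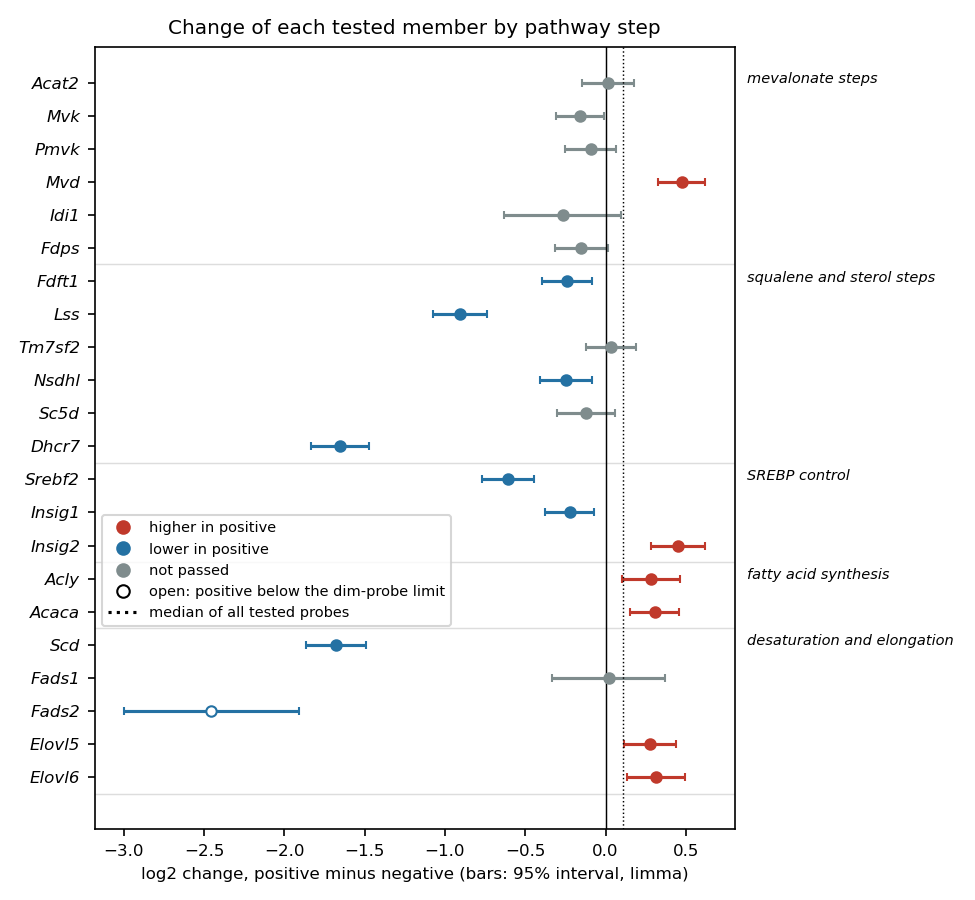
The log2 change, positive minus negative, of each tested member in pathway order, with its 95% interval from limma; the dotted line is the median of all tested probes at 0.11. Dhcr7, Scd and Fads2 lie farthest to the left, Lss and Srebf2 next, and most of the other members lie within 0.5 of 0. The open point marks Fads2, whose positive libraries were below the limit for dim probes.

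The plot of change by pathway step shows each fitted value with its interval. 5 of the 14 called members, Dhcr7, Lss, Srebf2, Scd and Mvd, kept their call and direction in all 18 alternative settings. Not every setting could change them. All 5 were read by early probes, whose rows stay the same in the other readings of names, and a looser threshold cannot remove a call. All but Lss had 1 readable probe, so the mean over probes was that probe's value. The promoters of these 5 members, which carry the comparison, are printed here. Each runs from 250 bases before to 50 bases after the annotated start (RefSeq, GRCr8), read 5′ to 3′ along the gene. Capitals mark CCAAT, or ATTGG where it stands on the opposite strand, the box bound by NF-Y, a factor that works beside SREBP at many sterol genes.

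The Dhcr7 promoter lies at chr1:208444184-208444483 on the + strand, Lss at chr20:12118181-12118480 on the - strand, Srebf2 at chr7:115543057-115543356 on the + strand, Scd at chr1:253231682-253231981 on the - strand and Mvd at chr19:67414925-67415224 on the - strand.
Dhcr7: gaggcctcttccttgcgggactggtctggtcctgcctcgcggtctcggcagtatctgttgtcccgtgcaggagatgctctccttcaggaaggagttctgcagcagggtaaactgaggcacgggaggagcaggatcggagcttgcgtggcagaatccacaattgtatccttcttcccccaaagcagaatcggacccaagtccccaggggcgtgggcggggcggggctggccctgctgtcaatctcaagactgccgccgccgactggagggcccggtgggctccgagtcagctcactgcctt
Lss: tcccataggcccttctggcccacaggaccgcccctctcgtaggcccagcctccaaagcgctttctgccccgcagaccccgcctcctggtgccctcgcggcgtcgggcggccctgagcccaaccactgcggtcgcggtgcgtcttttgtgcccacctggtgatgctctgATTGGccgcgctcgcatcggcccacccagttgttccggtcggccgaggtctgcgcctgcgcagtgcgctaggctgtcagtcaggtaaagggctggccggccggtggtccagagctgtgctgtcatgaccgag
Srebf2: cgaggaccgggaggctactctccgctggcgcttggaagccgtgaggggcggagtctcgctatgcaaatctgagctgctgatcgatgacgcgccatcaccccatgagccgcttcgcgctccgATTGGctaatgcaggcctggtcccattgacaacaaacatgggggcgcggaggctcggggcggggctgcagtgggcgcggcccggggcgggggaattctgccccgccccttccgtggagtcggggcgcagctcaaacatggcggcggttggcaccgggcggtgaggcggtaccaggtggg
Scd: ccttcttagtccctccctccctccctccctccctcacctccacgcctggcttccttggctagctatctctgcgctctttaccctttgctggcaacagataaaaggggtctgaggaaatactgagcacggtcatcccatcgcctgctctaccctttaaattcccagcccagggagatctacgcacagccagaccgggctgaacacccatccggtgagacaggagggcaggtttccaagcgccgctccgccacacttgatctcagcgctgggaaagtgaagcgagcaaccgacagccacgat
Mvd: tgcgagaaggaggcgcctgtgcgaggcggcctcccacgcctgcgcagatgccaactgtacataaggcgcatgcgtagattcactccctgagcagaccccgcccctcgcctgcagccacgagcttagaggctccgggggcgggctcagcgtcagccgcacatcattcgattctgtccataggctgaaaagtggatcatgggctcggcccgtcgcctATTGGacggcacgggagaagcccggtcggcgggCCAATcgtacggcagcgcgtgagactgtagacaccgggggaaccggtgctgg

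The Lss window held 1 such box, 82 bases before the start, and the Srebf2 window 1, at 129 bases before it. The Mvd window held 2, at 35 and 2 bases before the start and on opposite strands. The windows of Dhcr7 and Scd held none. Promoter windows were found for 24 of the 30 members, and 19 of these genes held the box in at least 1 window, where 37.5% of all 33469 windows of this length did. By call, the box was in 4 of 4 windows of members called higher (Insig2, of unsettled direction, among them), in 4 of 7 of members called lower, in 6 of 7 of members that did not pass, in 2 of 2 of members too dim to test and in 3 of 4 of members not read. The sterol regulatory element core TCACNCCAC, searched on both strands, was in 0 of the 25 member windows and in 1.12% of all windows. A match describes letters in a window, and no match says only that these letters are not there.

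On the deposited scale 1 of 6 tested genes of the mevalonate steps rose, Mvd, none fell and 5 did not pass, where 45.3% of all genes rose and 21.3% fell by their brightest probes. After either normalization 1 was higher and 4 were lower. Of all tested probes 33.0% were higher and 28.7% lower with quantile, and 31.7% and 32.2% with loess normalization. The median log2 change of the 6 was -0.12 on the deposited scale, -0.31 with quantile and -0.32 with loess normalization. Mvd, the decarboxylase that makes isopentenyl diphosphate, had an intensity of 49.5 and 51.0 in the positive libraries and 36.5 and 35.8 in the negative libraries. Both positive arrays lay above both negative arrays, with a log2 change of 0.47 ± 0.07 (SE, n = 2 each; adjusted p = 0.000156, limma), which became 0.22 with quantile and 0.25 with loess normalization.

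Acat2, the thiolase that joins acetyl-CoA units at the start of the route, had 70.5 and 70.6 in the positive libraries and 67.0 and 72.7 in the negative libraries. The groups overlapped, and the log2 change of 0.02 had a 95% interval of -0.14 to 0.18, but with quantile (-0.27) and loess (-0.23) normalization Acat2 was called lower. Mvk, mevalonate kinase, had 32.0 and 33.5 in the positive libraries and 36.4 and 36.9 in the negative libraries (log2 change -0.16, adjusted p = 0.0565, limma). Pmvk, phosphomevalonate kinase, had 152 and 149 in the positive libraries and 164 and 157 in the negative libraries (log2 change -0.09, interval -0.25 to 0.07).

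Fdps, the synthase of farnesyl diphosphate, from which sterols and prenyl groups branch, had 63.9 and 58.5 in the positive libraries and 69.8 and 66.0 in the negative libraries (log2 change -0.15, interval -0.32 to 0.02). Mvk, Pmvk and Fdps did not pass on the deposited scale, while all 3 were called lower after either normalization (-0.36 to -0.43 with quantile). Idi1, isopentenyl diphosphate isomerase, had 0.831 and 0.828 in the positive libraries and 1.11 and 0.896 in the negative libraries, a log2 change of -0.27 with a wide interval of -0.63 to 0.10.

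Of 6 tested genes of the squalene and sterol steps 4 fell and 2 did not pass on their brightest probes, where 21.3% of all genes fell and 45.3% rose, and 3 more were too dim on average to be tested. After quantile normalization 5 of the 6 were lower and after loess 6, where 28.7% and 32.2% of all tested probes were lower. A second probe of Sc5d was called higher, and the dim Hsd17b7 was higher by its bound, as given below. Dhcr7, the reductase of the last step to cholesterol, had 2.44 and 2.68 in the positive libraries and 7.73 and 8.35 in the negative libraries. The groups were far apart, with a log2 change of -1.65 ± 0.08 (SE, n = 2 each; adjusted p = 1.97e-07, limma). It was -1.71 with quantile and -1.77 with loess normalization.

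Lss, lanosterol synthase, closes the first sterol ring system from oxidised squalene and was read by 3 probes. Its brightest probe had 5.26 and 5.83 in the positive libraries and 10.2 and 10.6 in the negative libraries, a log2 change of -0.90 ± 0.07 (SE, n = 2 each; adjusted p = 5.20e-06, limma). A second probe of the same transcript, in the late part of the array, had 3.41 and 3.45 in the positive libraries and 6.21 and 7.05 in the negative libraries (log2 change -0.95). The last had 1.26 and 1.34 in the positive libraries and 1.93 and 1.79 in the negative libraries (log2 change -0.52), so all 3 probes fell.

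Fdft1, squalene synthase, makes the first step committed to sterols, and its 2 probes differed in size. The brighter had 38.4 and 37.4 in the positive libraries and 43.2 and 46.3 in the negative libraries (log2 change -0.24, adjusted p = 0.0120, limma), a call that was lost without the second negative array (adjusted p = 0.0793). The other probe had 10.8 and 9.44 in the positive libraries and 23.2 and 22.8 in the negative libraries, a log2 change of -1.19 ± 0.08 (SE, n = 2 each; adjusted p = 1.15e-06, limma).

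Nsdhl, a dehydrogenase that helps to remove methyl groups from the sterol ring, had 10.5 and 11.6 in the positive libraries and 13.0 and 13.2 in the negative libraries. It fell by 0.25 on the log2 scale (adjusted p = 0.0132, limma), a call lost without the first positive array (adjusted p = 0.0921). Tm7sf2, a sterol reductase, had 31.1 and 30.6 in the positive libraries and 29.1 and 31.3 in the negative libraries. Its groups overlapped, and its log2 change of 0.03 had an interval of -0.12 to 0.19, but it was called lower with quantile (-0.20) and with loess normalization (-0.18).

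Sc5d, a sterol desaturase of the steps just before Dhcr7, gave no settled direction. Its brighter probe had 3.31 and 3.14 in the positive libraries and 3.35 and 3.67 in the negative libraries (log2 change -0.12, interval -0.30 to 0.06). The other probe had 1.63 and 1.71 in the positive libraries and 1.13 and 1.32 in the negative libraries and was called higher (log2 change 0.46, adjusted p = 0.00742, limma).

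Sqle, Ebp and Hsd17b7 had mean levels below the limit for dim probes, the 40th percentile of mean log2 values at an intensity of 0.456. Sqle, squalene epoxidase, had 0.244 and 0.364 in the positive libraries and 0.277 and 0.540 in the negative libraries on its brighter probe, with overlapping groups, and 0.331 and 0.458 in the positive libraries and 0.247 and 0.236 in the negative libraries on the other. Ebp, a sterol isomerase, had 0.104 and 0.111 in the positive libraries and 0.266 and 0.0489 in the negative libraries. Hsd17b7, a ketosteroid reductase of the sterol route, had 0.923 and 0.721 in the positive libraries and 0.130 and 0.186 in the negative libraries, at least 1.79-fold higher in the positive libraries when the negative arrays are set to the limit. With no filter on dim probes Hsd17b7 passed (adjusted p = 0.000651, limma), while Sqle (adjusted p = 0.564 on its brighter probe) and Ebp (adjusted p = 0.961) did not.

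**Figure D2:**
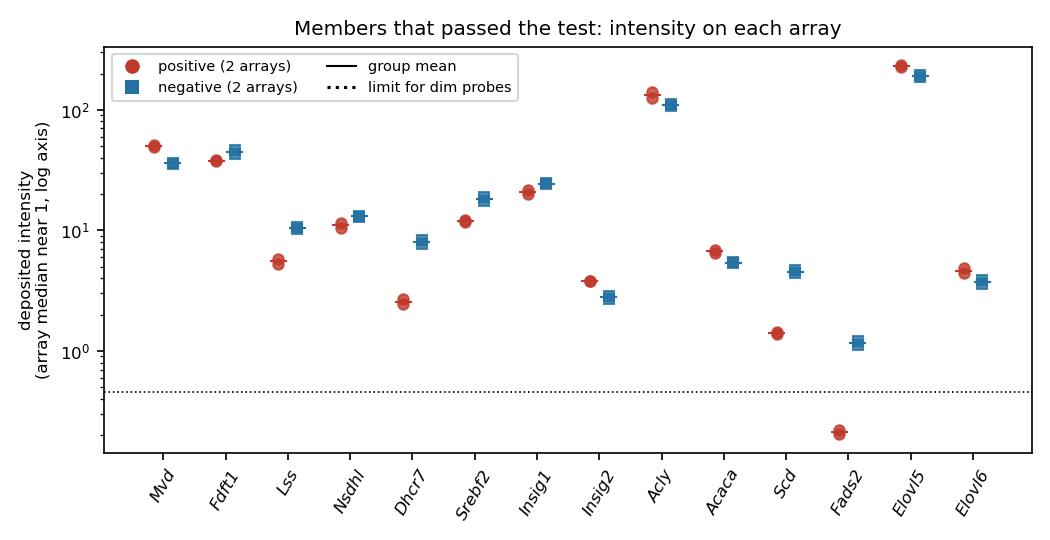
Intensity on each array (log axis, array median near 1) of the 14 members that passed, with positive arrays as circles on the left and negative arrays as squares on the right of each gene; short lines are group means and the dotted line is the limit for dim probes at 0.456. The 2 arrays of a group lie close together, and Dhcr7, Scd, Fads2 and Lss show the widest gaps. Levels of different genes come from different probes and are not comparable.

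Of the 3 regulators that could be read Srebf2 and Insig1 fell on the 1 probe tested for each, and the probes of Insig2 disagreed. Srebf2, which encodes the SREBP that drives cholesterol genes, had 12.2 and 11.7 in the positive libraries and 17.4 and 19.1 in the negative libraries. Both positive arrays lay below both negative arrays, and the log2 change was -0.61 ± 0.07 (SE, n = 2 each; adjusted p = 5.84e-05, limma). Insig1, itself a known SREBP target, had 2 readable probes. The dim one, not tested, had 0.147 and 0.284 in the positive libraries and 0.109 and 0.131 in the negative libraries. The brighter had 20.1 and 21.6 in the positive libraries and 24.3 and 24.5 in the negative libraries. It fell by 0.22 on the log2 scale (adjusted p = 0.0158, limma), a call lost without the second negative array (adjusted p = 0.0527) or the first positive array (adjusted p = 0.0968).

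Insig2, the second INSIG gene, had 3 probes that disagreed. The brightest had 3.78 and 3.82 in the positive libraries and 2.85 and 2.71 in the negative libraries and was called higher (log2 change 0.45, adjusted p = 0.000519, limma). Another probe of the same transcript, in the early part of the array, had 1.31 and 1.28 in the positive libraries and 2.12 and 2.01 in the negative libraries and was called lower (log2 change -0.67, adjusted p = 0.000236, limma). The third was also lower, with 1.07 and 1.26 in the positive libraries and 1.97 and 1.63 in the negative libraries (log2 change -0.63). Counting Insig2 as higher rests on the choice of the brightest probe, and its direction is not settled.

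**Figure D3:**
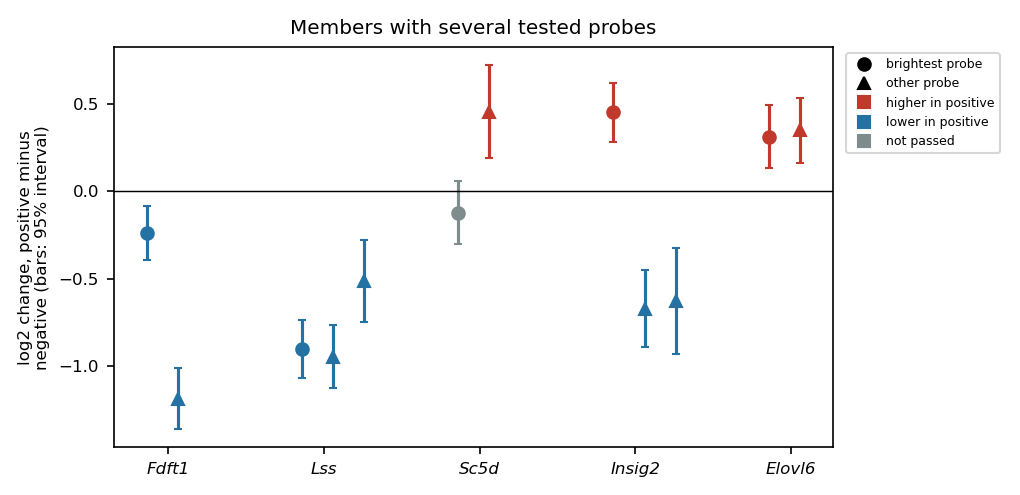
The log2 change, positive minus negative, with its 95% interval for the 5 members with more than 1 tested probe; circles are the brightest probe and triangles the others. The 3 probes of Lss all lie below 0 and both of Elovl6 above it, those of Fdft1 differ in size, and those of Insig2 lie on both sides of 0, from -0.67 to 0.45.

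Across the 9 members with more than 1 readable probe, 3 had the same call on every tested probe (Fdft1, Lss and Elovl6), 1 had opposite calls (Insig2) and 1 had a called and an uncalled probe (Sc5d). The other 4 had fewer than 2 tested probes. The plot of probes by gene shows the 5 that could be compared.

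Fatty acid synthesis and elongation genes had small positive changes on the deposited scale, and only Elovl6 kept its call under both normalizations. Acly, which makes cytosolic acetyl-CoA from citrate, had 125 and 141 in the positive libraries and 111 and 107 in the negative libraries. Its log2 change of 0.28 (adjusted p = 0.0117, limma) shrank to 0.08 with quantile and 0.0068 with loess normalization, where it did not pass. The call was also lost without the second negative array (adjusted p = 0.0559) or the second positive array (adjusted p = 0.0918).

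Acaca, the acetyl-CoA carboxylase that commits carbon to fatty acids, had 6.81 and 6.54 in the positive libraries and 5.46 and 5.34 in the negative libraries. The groups did not overlap, and the log2 change of 0.31 (adjusted p = 0.00300, limma) was 0.23 with quantile and 0.17 with loess normalization, the last not past the threshold (adjusted p = 0.0546). A second Acaca probe was dim, with 0.0579 and 0.127 in the positive libraries and 0.130 and 0.0784 in the negative libraries.

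Elovl5, an elongase of polyunsaturated fatty acids, had 229 and 234 in the positive libraries and 193 and 188 in the negative libraries. Its rise on the deposited scale (log2 change 0.28, adjusted p = 0.00683, limma) was 0.014 with quantile and -0.017 with loess normalization, neither past the threshold. Elovl6, an elongase of saturated and monounsaturated fatty acids, rose on both of its probes. The brighter had 4.88 and 4.40 in the positive libraries and 3.85 and 3.62 in the negative libraries (log2 change 0.31, adjusted p = 0.00694, limma), and the other had 2.65 and 2.62 in the positive libraries and 2.13 and 2.01 in the negative libraries (0.35). Elovl6 stayed past the threshold with quantile (0.26) and with loess normalization (0.20).

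Desaturases showed the other large differences of the set. Scd, the stearoyl-CoA desaturase that makes monounsaturated fatty acids, had 1.39 and 1.44 in the positive libraries and 4.65 and 4.39 in the negative libraries. The groups were well separated, with a log2 change of -1.68 ± 0.08 (SE, n = 2 each; adjusted p = 2.09e-07, limma), and it was -1.70 with quantile and -1.75 with loess normalization.

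Fads2, the desaturase of the first step to long polyunsaturated fatty acids, had 0.204 and 0.219 in the positive libraries and 1.11 and 1.20 in the negative libraries. With the positive arrays set to the limit for dim probes, it was at least 2.54-fold lower in the positive libraries, a bound that was not itself tested. A second probe of the same transcript, in the late part of the array, was too dim on average to be tested, with 0.289 and 0.0508 in the positive libraries and 1.43 and 1.30 in the negative libraries, at least 2.98-fold lower in the positive libraries by the same bound. Fads1, a desaturase of a later step in the same chain, had 0.912 and 0.807 in the positive libraries and 0.843 and 0.852 in the negative libraries, with overlapping groups and a log2 change of 0.02 (interval -0.34 to 0.37).

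**Figure D4:**
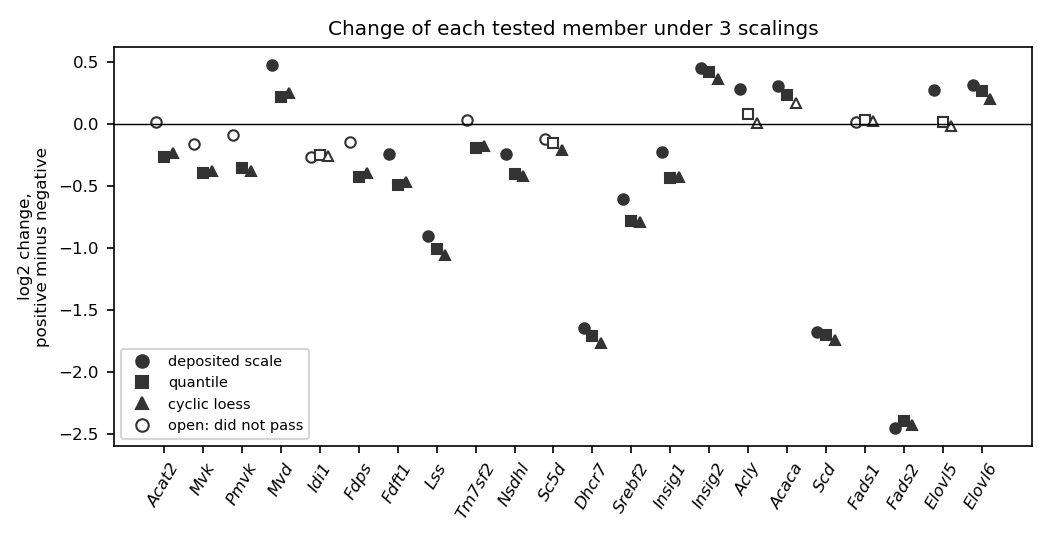
The log2 change, positive minus negative, of each tested member on the deposited scale (circles), after quantile (squares) and after cyclic loess normalization (triangles); filled symbols passed an adjusted p of 0.05. Dhcr7, Scd, Fads2, Lss and Srebf2 are low under each scaling, while Acat2, Mvk, Pmvk, Fdps and Tm7sf2 pass only after normalization and Acly and Elovl5 only before it.

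Over all tested probes the median change was 0.23 (log2) where the mean log2 level was above 4, and 0.12 where it was from 2 to 4. At lower levels it was -0.0018 and 0.020. In the plot of change by scaling, 11 of the 14 called members kept their call and direction under both normalizations, 3 higher (Mvd, Insig2 and Elovl6) and 8 lower (Fdft1, Lss, Nsdhl, Dhcr7, Srebf2, Insig1, Scd and Fads2). Of these, Fads2 passed the filter on dim probes only through its negative arrays, and the other probes of Insig2 were called lower. How many of all called probes kept their call was not counted. Another 5 members that did not pass on the deposited scale were called lower under both normalizations.

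Genes around these pathways were taken from 7 lists of sterol and fatty acid metabolism without the members. Of 78 tested genes 45 were higher and 17 lower in the positive libraries, 57.7% and 21.8%, with a median log2 change of 0.26. Among the brightest probes of all genes 45.3% were higher and 21.3% lower, with a median of 0.17. Counts of each list below on the deposited scale stand against the same shares. After quantile normalization 28 of the 78 were higher and 21 lower, where 33.0% and 28.7% of all tested probes were. After loess normalization 27 were higher and 21 lower, where 31.7% and 32.2% of all tested probes were. List counts after normalization, here and below, stand against these shares of all tested probes.

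Of 13 genes of SREBP processing and further SREBP targets 9 rose and 3 fell. Lpin1, a phosphatidate phosphatase, had 4.21 ± 0.485 (SD, n = 2 here and below) in the positive libraries and 2.52 ± 0.120 in the negative libraries. A second Lpin1 probe was called lower (log2 change -0.80, adjusted p = 0.00386, limma), with 0.577 ± 0.0432 in the positive libraries and 1.012 ± 0.161 in the negative libraries, so the direction of Lpin1 is not settled. Pnpla3, a lipase-like protein, had 10.1 ± 0.601 in the positive libraries and 6.72 ± 0.399 in the negative libraries. Scd2, a second stearoyl-CoA desaturase, had 23.6 ± 1.47 in the positive libraries and 43.5 ± 1.55 in the negative libraries. A second Scd2 probe, which passed the filter only through its positive arrays, went the other way, with 0.886 ± 0.00396 in the positive libraries and 0.372 ± 0.204 in the negative libraries, the negative libraries below the limit for dim probes. Thrsp, a protein linked to lipogenesis, had 0.113 ± 0.227 in the positive libraries and 18.7 ± 0.526 in the negative libraries, at least 41.0-fold lower with the positive arrays set to the limit for dim probes. Thrsp passed the filter only through its negative arrays.

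Cholesterol uptake, transport and efflux genes went both ways, with 7 of 17 higher and 6 lower. Apoe, the apolipoprotein that carries cholesterol in nerve tissue, had 142 ± 2.66 in the positive libraries and 82.7 ± 0.390 in the negative libraries, and the cholesterol exporter gene Abca1 7.52 ± 0.130 and 4.66 ± 0.430. Pltp, a phospholipid transfer protein gene, had 1.68 ± 0.118 in the positive libraries and 5.39 ± 0.903 in the negative libraries, and the transporter gene Abcg4 0.927 ± 0.0377 and 2.51 ± 0.0325. Among 5 sterol oxidation genes 3 rose and 1 fell. Ch25h, a cholesterol hydroxylase, had 7.64 ± 0.542 in the positive libraries and 2.72 ± 0.151 in the negative libraries, Hsd3b7 3.54 ± 0.107 and 2.52 ± 0.340, and the oxysterol hydroxylase gene Cyp7b1 2.96 ± 0.291 and 8.40 ± 0.260.

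Isoprenoid branch genes use the products of the mevalonate steps, and 6 of the 8 tested rose while none fell. Either normalization left 5 of them higher and called 1 lower, Nus1 on its brighter probe. The other Nus1 probe had 29.0 ± 1.23 in the positive libraries and 13.8 ± 1.36 in the negative libraries. It was called higher before and after either normalization, so the direction of Nus1 is not settled. Among the 6 that rose, Coq2 had 1.05 ± 0.139 in the positive libraries and 0.239 ± 0.128 in the negative libraries. Its negative libraries lay below the limit for dim probes, so it was at least 2.30-fold higher and passed the filter only through its positive arrays. Ggps1, the synthase of geranylgeranyl diphosphate, had 14.9 ± 0.446 in the positive libraries and 8.72 ± 1.15 in the negative libraries, and Rabggta, a prenyltransferase subunit, 4.83 ± 0.333 and 3.40 ± 0.0391. Of 11 further elongation, desaturation and activation genes 7 rose and 2 fell. Quantile normalization gave 4 higher and 3 lower, and loess 3 in each direction. Acsl1, an acyl-CoA synthetase, had 56.7 ± 1.08 in the positive libraries and 35.9 ± 0.347 in the negative libraries. Acacb, the second acetyl-CoA carboxylase, had 0.979 ± 0.0397 and 0.310 ± 0.0834, the negative libraries below the limit for dim probes, so that it was at least 2.15-fold higher and passed the filter only through its positive arrays. Elovl7 had 2.69 ± 0.222 in the positive libraries and 5.13 ± 0.237 in the negative libraries, and Oxsm, of mitochondrial fatty acid synthesis, 6.64 ± 0.318 and 11.1 ± 0.0302.

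Fatty acid oxidation genes rose in 9 of 15 and fell in 2. This balance depended on the scaling, since quantile normalization gave 1 higher and 3 lower, and loess 2 higher and 3 lower. Cpt1b, a carnitine palmitoyltransferase, had 50.6 ± 1.70 in the positive libraries and 18.8 ± 0.631 in the negative libraries, Hadhb 21.9 ± 0.521 and 17.0 ± 0.759, Hadh 6.48 ± 0.221 and 9.61 ± 0.670, and the carnitine carrier gene Slc25a20 0.931 ± 0.0835 and 1.33 ± 0.0113. Of 10 genes listed for the lipids of myelin 4 were higher and 3 lower on the deposited scale, and 2 were higher and 4 lower under either normalization. Fa2h, the hydroxylase of myelin galactolipids, had 4.18 ± 0.0272 in the positive libraries and 23.4 ± 0.584 in the negative libraries, and Ugt8, the galactosyltransferase of the same lipids, 5.41 ± 0.0374 and 11.1 ± 0.841. Ugcg, of glucosylceramide synthesis, had 135.6 ± 2.65 in the positive libraries and 83.9 ± 2.96 in the negative libraries, and Aspa, which cleaves N-acetylaspartate, 4.41 ± 0.202 and 2.38 ± 0.243. The 4 higher genes were Ugcg, Cers5, a ceramide synthase gene, Aspa and Smpd1, a sphingomyelin hydrolase gene. Of these, Aspa and Smpd1 do not make sphingolipids. Beside Fa2h and Ugt8 the lower gene was Cers2, another ceramide synthase gene, at 60.5 ± 0.709 and 71.9 ± 1.10.

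**Figure D5:**
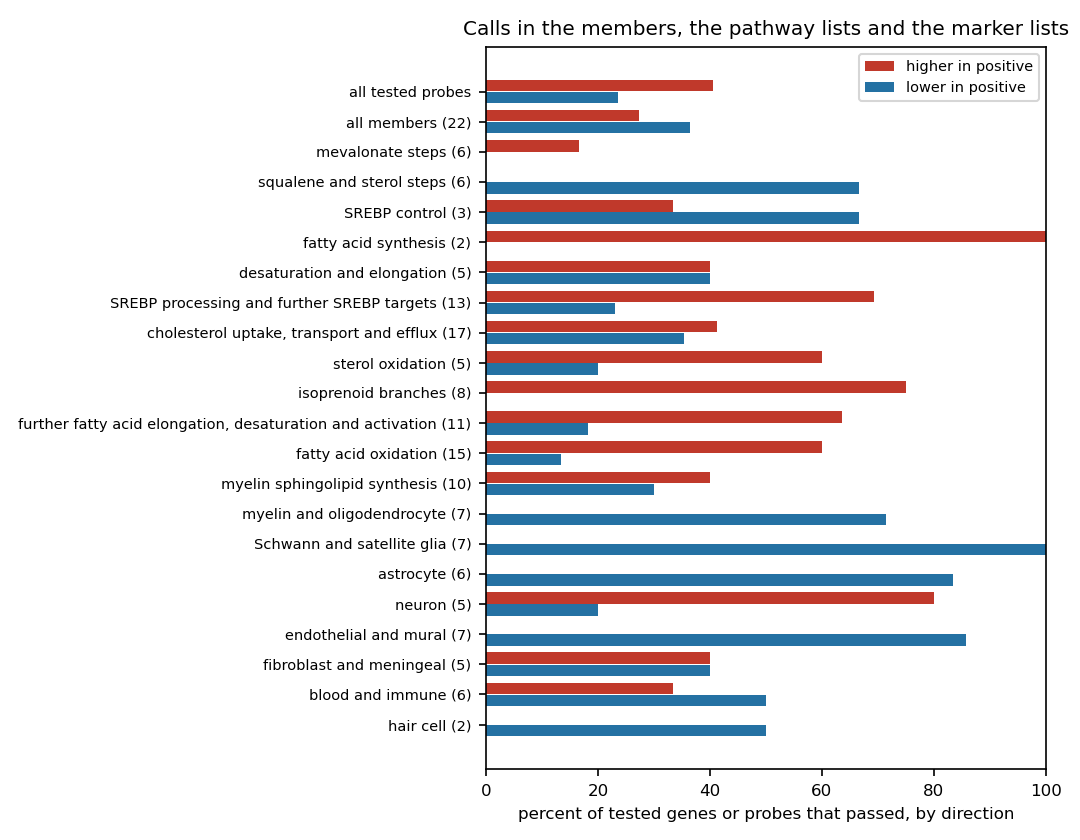
The percent of tested genes called higher (upper bar) or lower (lower bar) in the positive libraries, for all tested probes, the members and their role groups, the pathway lists and the marker lists, with the number tested in brackets. All tested probes stand at 40.6% higher and 23.6% lower, the members at 27.3% and 36.4%.

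Against the same shares of all genes, 45.3% higher and 21.3% lower, markers of glia and vessels were lower in the same libraries as Dhcr7, Lss, Scd and Fads2, as the plot of calls by list shows. Of 7 tested myelin and oligodendrocyte markers 5 fell and none rose. The summed intensity of the 10 readable markers was 209.7 and 208 in the positive libraries and 359 and 352 in the negative libraries. Such sums, here and below, weigh bright probes most and do not measure amounts of a cell type. Cldn11, the brightest of these markers, did not pass on the deposited scale. It had 185 ± 3.48 in the positive libraries and 194 ± 8.59 in the negative libraries. Opalin, at 11.2 ± 0.558 and 10.2 ± 0.270, did not pass before or after either normalization. Mog had 1.0001 ± 0.0209 in the positive libraries and 42.9 ± 1.25 in the negative libraries, and Mobp 1.90 ± 0.158 and 76.6 ± 1.25, while Mag and Olig2 were below the limit for dim probes in both groups and Olig1 in the positive libraries. Of 7 Schwann and satellite glia markers 7 fell (sums of 123 and 112 in the positive libraries and 298 and 315 in the negative libraries), with Gfap at 1.04 ± 0.0739 and 44.5 ± 2.41 and Lgi4 at 0.900 ± 0.0315 and 25.5 ± 1.03. Of 6 astrocyte markers 5 fell (sums of 253 and 281 in the positive libraries and 465 and 445 in the negative libraries), and Aqp4 had 0.473 ± 0.183 and 50.1 ± 2.36, at least 95.5-fold lower by the bound used for Fads2. Cdh19 was below the limit for dim probes in the positive libraries and Slc1a2 in both groups.

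Of 7 endothelial and mural markers 6 fell (sums of 25.1 and 25.1 in the positive libraries and 53.9 and 55.0 in the negative libraries). Pecam1 stood at 2.30 ± 0.0723 and 8.72 ± 0.0925 and Tek at 7.69 ± 0.220 and 21.5 ± 1.07. Flt1, counted among the 6, had 5.15 ± 0.0459 and 5.88 ± 0.228 on its brightest probe. Another Flt1 probe was called higher, at 1.48 ± 0.153 and 0.755 ± 0.0704, so the direction of Flt1 is not settled. Among 5 neuron markers 4 were higher and 1 lower (sums of 342 and 331 in the positive libraries and 266 and 266 in the negative libraries), and either normalization left 2 higher and 1 lower. Nefh had 3.87 ± 0.255 in the positive libraries and 1.26 ± 0.157 in the negative libraries and Nefm 102 ± 1.06 and 68.3 ± 0.848, while Snap25 was below the limit for dim probes in both. Elavl4, the 1 that fell, had 0.752 ± 0.0190 and 1.39 ± 0.0596 on its brighter probe, and its other probe did not pass. Uchl1, the brightest of the list, had 196 ± 7.98 and 167 ± 2.92 and did not pass after either normalization. Fibroblast and meningeal markers rose in 2 of 5 and fell in 2 (sums of 404 and 406 in the positive libraries and 259 and 274 in the negative libraries). Ogn stood at 117 ± 9.10 and 55.1 ± 2.41 and Dcn at 8.48 ± 1.03 and 16.5 ± 0.0183. Mgp, the brightest of that list, also rose, at 225 ± 4.94 and 138 ± 4.58. Col1a1 also fell on its brighter probe, at 20.0 ± 1.09 and 23.6 ± 1.17. Of 6 blood and immune markers 2 rose and 3 fell (sums of 91.9 and 95.5 in the positive libraries and 157 and 167 in the negative libraries), with Alas2 at 6.19 ± 0.305 and 15.7 ± 0.680 and Csf1r at 50.2 ± 3.18 and 115 ± 8.23. The 2 that rose, named after their values were seen, were Ptprc, at 27.1 ± 0.456 in the positive libraries and 21.3 ± 1.63 in the negative libraries, and Cd68, at 3.96 ± 0.0600 and 2.93 ± 0.0473. Of 2 hair cell markers Ush1c fell, with 3.97 ± 0.0834 and 5.29 ± 0.138, and Otof had 4.47 ± 0.248 and 4.89 ± 0.286 (sums of the 3 readable markers of 8.41 and 8.75 in the positive libraries and 10.4 and 10.3 in the negative libraries). Some genes, Gfap among them, stand in more than 1 marker list. Kdr, Acta2, Lum and Myo7a were below the limit for dim probes in both groups. The part of these cell types in the changes of the lipid synthesis genes was not tested.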

How the data were processed

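Total RNA of 4 samples was profiled on 1-colour arrays labelled with Cy5, per the labels. The deposited table holds the authors' intensity values on a linear scale, with array medians of 0.990 to 0.992. How the scans were background-corrected and scaled is not stated in the sources used here. Genes were not centred to a common level. Ebp had means of 0.107 in the positive and 0.157 in the negative libraries, and Elovl5 231 and 191. Values of -9999 were read as missing, and before log2, any missing, negative or zero value (542 to 786 per array) took the 1st percentile of all positive values of its array. Probes below the 40th percentile of mean log2 value were left out, which left 21070 of 35126; 9 were missing on every array. The table has no detection flags, so this limit is not a detection call.

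Probe names came from the platform annotation, updated by gene ID through RefSeq: 16677 probes had 1 symbol, 163 several. Names were read at their own row in the early part of the array and 5 rows later in the late part, and 2010 probes between were not read. Mean log2 levels of an early and a late probe of 1 accession correlated at r = 0.379 with this reading and -0.167 at their own rows (982 pairs), against 0.350 for pairs of early probes (523 pairs).

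The test was two-sided, by limma 3.58.1 (R 4.3.3; lmFit and eBayes with trend), adjusted by Benjamini-Hochberg over all tested probes. The brightest readable probe stood for a gene. The members and lists were chosen with earlier results of these data known. Named were every readable member, the 2 genes with the smallest p in each direction of each pathway list and the 2 of each marker list. Further genes named to show the limits of a count or a sum, such as Coq2, Cldn11 and Elavl4, were picked after their values were seen. Where a group lay below the dim limit, the bound sets each dim array to the higher of the limit and its own value. Deviations of same-numbered arrays from their group means were uncorrelated (r = 0.000556 over 21070 probes), so the numbers were not taken to pair arrays. The code was tested on simulated data. Alternatives were a replicate block, 2 normalizations, other filters, floors, variance priors and thresholds, means over probes, other readings of names and leaving out each array.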

Additional observations from a re-analysis of the deposited data

How the results depend on the processing

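The replicate block gave 14 members called, 6 higher and 8 lower, as without it, and changed no call of a member. With loess normalization 3 members were higher and 14 lower, the median log2 change of the members was -0.32 and 27 genes of the pathway lists were higher; with quantile normalization 13 members were lower, the median was -0.31 and 28 pathway genes were higher. With each probe tested on its own spread 9 members passed (5 lower), 25 pathway genes (12 higher) and 7082 probes (4492 higher, 2590 lower), where the main counts were 14, 62 and 13530. With names of the early part alone, which test fewer genes, 2 members were higher, the median was -0.26 and 32 pathway genes passed (24 higher, 8 lower), and a filter at the 60th percentile, with fewer probes to test, left 3153 probes lower. When each array was dropped in turn, 10 to 14 members were called, 5 to 7 higher and 5 to 8 lower, in fits that take the single array left to be as variable as the other group. Without the second negative array the 3 members that left the lower count were Fdft1, Insig1 and Fads2, the last no longer tested.

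Signs turned for Acat2 with quantile (-0.27) and loess (-0.23), Tm7sf2 with quantile (-0.20) and loess (-0.18) and Elovl5 with loess (-0.017). With late names as deposited Fdft1 had 0.38, Insig2 -0.20, Acaca -0.18 and Fads2 0.45, values of other rows of the table; with early names alone Insig2 had -0.67; and with means over probes Insig2 had -0.28 and Insig1 0.28. The mean for Insig1 took in its dim probe. Of 380 values of single members under alternatives, 340 kept call and direction or stayed uncalled, 17 lost a call, 11 gained one and 12 turned sign. Where fewer genes or samples were not the reason, the cause was not tested. Having 2 arrays a group limits all values.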
